A study of Mus musculus with 36 samples.

Results

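*Pim1*, *Cd83*, *Il4ra*, *Il21r*, *Cd74* and *Rhoh* are 6 genes known as off-targets of activation-induced cytidine deaminase (AID) in B cells. They were taken by name, and each was placed by its gene start on the mouse mm9 assembly in 3 maps of replication timing (RT) domains. They are 6 of the 22350 protein-coding genes placed. In every map all 6 gene starts lay in an early (E) domain, and the whole body of each gene was E.

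AID is expressed in activated B cells, where it converts cytosine to uracil in the single-stranded DNA exposed by transcription. At the immunoglobulin genes this starts somatic hypermutation and class switch recombination. The same enzyme also reaches a set of other transcribed genes, its off-targets, which can acquire mutations and DNA breaks and take part in translocations. RT is the order in which stretches of a chromosome are copied during S phase. Early domains are in general rich in genes and transcribed, and late domains poor in both. Pim1 is a serine/threonine kinase that promotes cell survival and growth. Il4ra and Il21r are the receptor chains that bind the cytokines IL-4 and IL-21, and both signal together with the common gamma chain. Cd83 is a surface protein of activated B cells and dendritic cells. Cd74 is the invariant chain that guides MHC class II molecules to the compartment where they are loaded with peptide. Rhoh is a small GTPase restricted to blood cells.

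RT was measured by Repli-seq. Dividing cells took up BrdU for 2 h and were sorted into early and late S phase, and the BrdU-labelled DNA of both fractions was sequenced. There are 36 libraries in 7 groups, and the maps of 2 groups used here rest on 8 libraries, 2 early and 2 late per group. The first group is shLacZ CH12 cells, that is clone F3 of a murine lymphoma line of B cell origin carrying a control shRNA against LacZ. The other is WT primary B cells, activated B cells from mouse spleen whose age and number of animals are not given in the sources used here. The labels describe stimulation with IL4, CD40 and TGF beta in a single text that speaks of CH12 cells and is attached to all samples, so the stimulation of the primary cells is unclear from it. The map that serves as the non-B comparison is named for WT mouse embryonic fibroblasts (MEFs). The labels tie it to no sample, and the study's dataset list describes its reads as coming from an earlier public series. No AID level, mutation or break is measured in these maps.

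Replicates were merged before the domains were called, so each condition has 1 map, no value has a replicate error and no difference between maps could be tested. The maps give domain limits in steps of 20 kb after smoothing over a span of 300 kb, and each domain carries a state of E, middle (M) or late (L) with no RT value. Differences of a few bins therefore cannot be told apart from the resolution of the maps. Markers of cell identity were read as timing only. Of the B cell markers, *Cd79a*, *Cd79b* and *Cd22* were E in all 3 maps, *Ebf1* was M in CH12 cells and E in the others, and *Pax5* was M in the MEF map and E in the others. All 6 fibroblast markers were E in the MEF map and 3 of 6 in each B cell map, where *Col1a2*, *Col3a1* and *Pdgfra* were M or L.

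The sequence at these genes bears on AID, which prefers certain short motifs. The strongest is AGCT, which reads the same on both strands, so 1 search covers both. The 150-base windows below are shown because they lie in introns within the first 2000 bases after the gene start, the part of a gene that AID reaches most, and hold the most copies of the motif among such windows of that gene. They come from the reference genome on build NCBIM37 (mm9), plus strand, with each AGCT in capitals. *Pim1* (ENSMUSG00000024014) occupies chr17:29627757-29632390, and its window is at chr17:29628996-29629145 in intron 4, 1239 bases from the gene start. *Rhoh* (ENSMUSG00000029204) occupies chr5:66254808-66287939, and its window is at chr5:66255932-66256081 in intron 1, 1124 bases from the start. *Il4ra* (ENSMUSG00000030748) occupies chr7:132695785-132722986, with its window at chr7:132697102-132697251 in intron 1. *Il21r* (ENSMUSG00000030745) follows at chr7:132746943-132777084, with its window at chr7:132747619-132747768 in intron 1. The *Cd83* window chosen in the same way held 1 copy and is not shown, and no window was sought for *Cd74*.
Pim1: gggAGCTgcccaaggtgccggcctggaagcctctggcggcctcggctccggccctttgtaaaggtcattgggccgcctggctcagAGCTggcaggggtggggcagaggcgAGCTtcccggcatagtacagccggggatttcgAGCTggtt
Rhoh: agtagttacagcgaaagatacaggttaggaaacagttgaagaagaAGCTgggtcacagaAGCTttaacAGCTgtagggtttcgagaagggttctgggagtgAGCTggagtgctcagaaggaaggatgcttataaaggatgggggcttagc
Il4ra: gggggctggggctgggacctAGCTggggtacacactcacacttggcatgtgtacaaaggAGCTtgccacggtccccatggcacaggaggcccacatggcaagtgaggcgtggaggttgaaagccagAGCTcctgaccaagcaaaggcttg
Il21r: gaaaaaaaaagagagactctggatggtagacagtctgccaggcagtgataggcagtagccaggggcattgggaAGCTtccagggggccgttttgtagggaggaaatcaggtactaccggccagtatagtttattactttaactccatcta

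The *Pim1* and *Rhoh* windows each hold 4 copies of the motif, *Il4ra* holds 3 and *Il21r* holds 1. Over the first 2000 bases the counts were 7 in *Pim1*, 9 in *Cd83*, 9 in *Il4ra*, 3 in *Il21r*, 11 in *Cd74* and 16 in *Rhoh*. The median of the 6 was 9, beside a median of 10 over 22340 protein-coding starts (quartiles 7 and 12). The motif occurs at least once in 99.96% of those windows, so its presence is no mark of these genes. *Rhoh* and *Il21r* stood at opposite ends: 7.33% of all starts had at least as many copies as *Rhoh*, and 99.3% had at least as many as *Il21r*. A match is a run of letters in the reference and not a measured site of deamination.

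The first comparison asked whether the 6 genes are early in B cells. All 6 were E in shLacZ CH12 cells, where 50.6% of protein-coding starts were E. All 6 were E in WT primary B cells, where the share was 58.0%. In the map named for MEFs all 6 were again E, beside 58.6% of all starts. State E in all 3 maps held for 6 of 6 members and for 43.9% of all starts. *Il4ra* and *Il21r* lie in the same domain in each map, so the 6 genes give 5 separate domains. The genes were chosen with earlier results of these data known, and no test was made of these counts.

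The next comparison asked whether the timing differs between the B cell maps or is particular to them. All 6 members had the same state in CH12 and primary B cells, which follows from all 6 being E in both maps and is no further result. Over all starts the share in the same state was 78.5%. Since all 6 were E in the CH12 and MEF maps, none could have an earlier state in another map, so a count of 0 follows from the counts above and is no further result. Over all starts, the state was earlier in primary B than in CH12 cells at 18.8%, and earlier in a B cell map than in the MEF map at 12.7%. At the level of states, the early timing of these 6 genes was thus shared with the map of a cell type outside the B lineage. A state spans a range of RT values, and differences in RT within E cannot be seen in these maps.

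**Figure D1:**
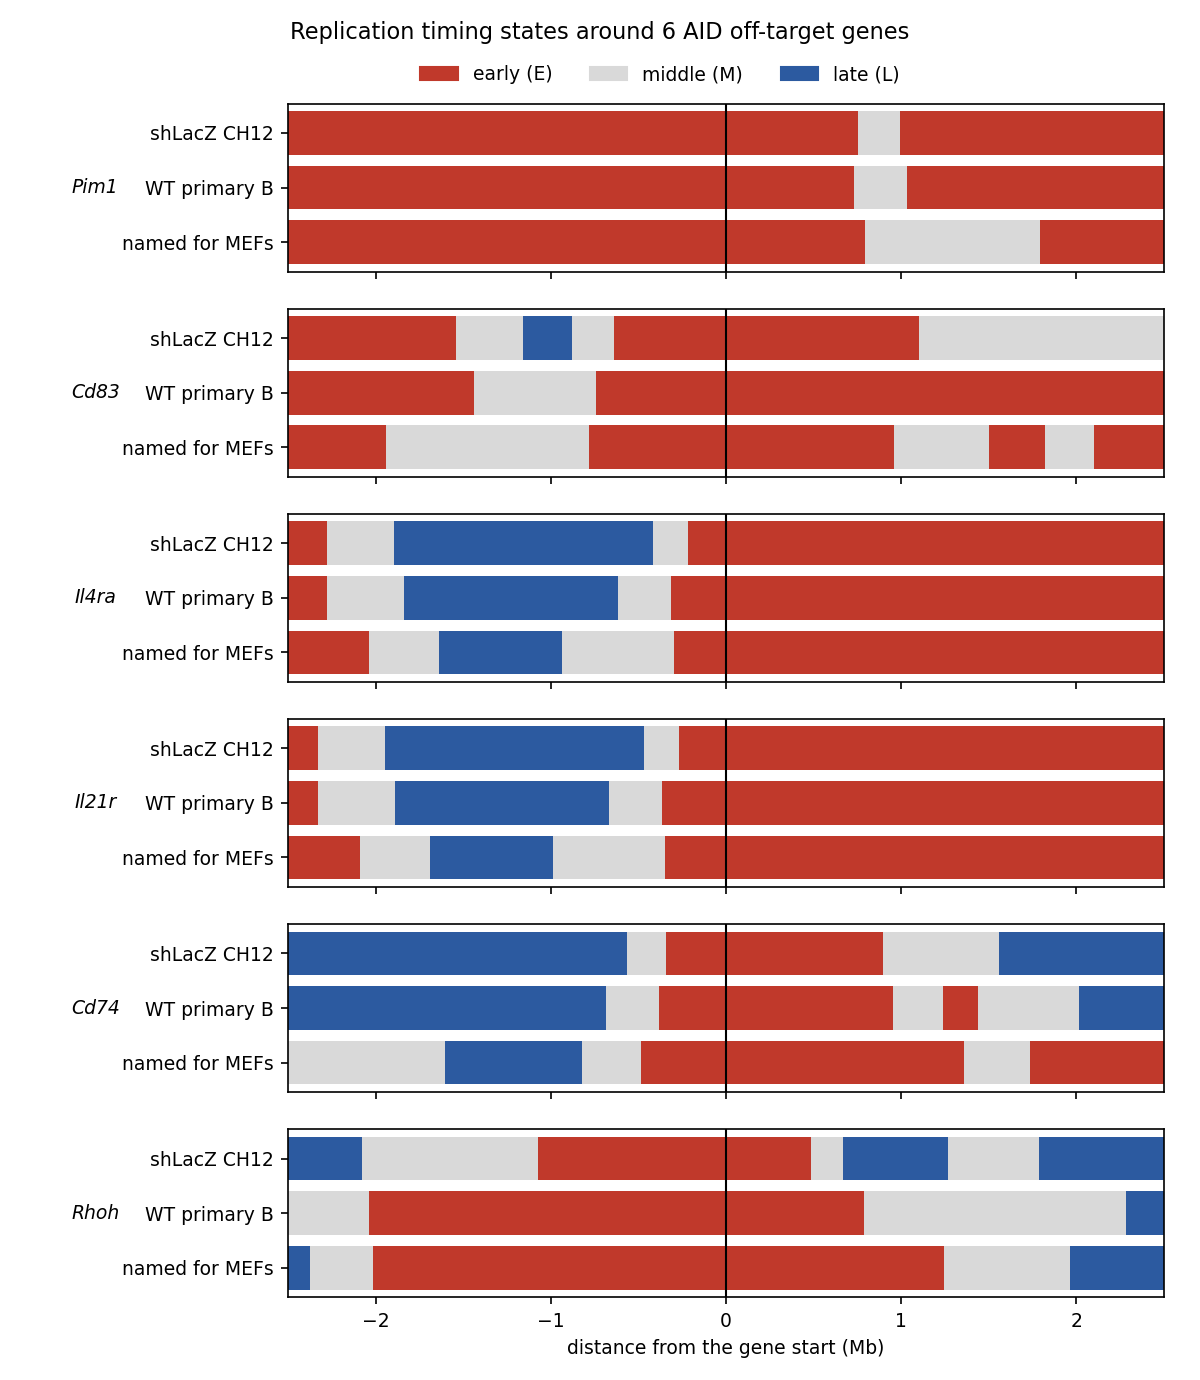
Timing states within 2.5 Mb of each gene start (x axis, distance in Mb, vertical line at the start, genes all reading to the right) in the 3 maps, with early in red, middle in grey and late in blue. Every start sits in red, and the red blocks around *Cd83* and *Rhoh* differ most between the maps.

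*Pim1* lies in the longest domain of the 6, and that domain differed little between maps. It measured 6660 kb in CH12 cells, 6700 kb in primary B cells and 6780 kb in the MEF map. The domain in CH12 cells covers chr17:23720001-30380000 and was the second longest of 555 E domains in that map, while the domain in primary B cells was the longest of 660. Its edges differed by 80 kb or less between any pair of maps. The domain is crowded, with 213 protein-coding starts in CH12 cells and 215 in each of the other maps, and 212 other starts share it in all 3. The nearest of them were *Gm17657* at 29.0 kb, *Tmem217* at 58.8 kb and *Tbc1d22b* at 59.0 kb. Despite the length of the domain, the *Pim1* start lies towards its right end, 752 kb from the edge in CH12 cells, 732 kb in primary B cells and 792 kb in the MEF map. Past this edge came an M stretch of 240 kb in CH12 cells, 300 kb in primary B cells and 1000 kb in the MEF map, each followed by another E domain. The nearest L domain was 6148 kb or more away in every map, the farthest of the 6 genes. The first protein-coding start past the edge, *Gm9874* at 995 kb, was E in CH12 cells and M in the other maps. E resumed 992 kb from the *Pim1* start in CH12 cells, 1032 kb in primary B cells and 1792 kb in the MEF map. The limits in CH12 and primary B cells are a few bins apart, so the difference in state at *Gm9874* between them is not resolved.

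The cytokine receptor genes *Il4ra* and *Il21r* are neighbours, with starts 51.2 kb apart, and their timing values are not independent. Their shared domain measured 3400 kb in CH12 cells, 3580 kb in primary B cells and 3600 kb in the MEF map. In CH12 cells it covers chr7:132480001-135880000, all of which was E in the other maps too. The pair sits close to the left edge, on the side before the gene starts. *Il4ra* was 216 kb from that edge in CH12 cells, 316 kb in primary B cells and 296 kb in the MEF map. *Il21r* was 267, 367 and 347 kb from it in the same order. *Il4ra* thus had the shortest distance of the 6 genes in each map, and both receptor genes were within the 300 kb smoothing span of the edge in CH12 cells, as *Il4ra* was in the MEF map. The edge lay 100 kb farther out in primary B than in CH12 cells, which is 5 bins. Late-replicating DNA was also near: past an M stretch of 200 kb in CH12, 300 kb in primary B and 640 kb in the MEF map, an L domain of 1480, 1220 and 700 kb began. The distance from *Il4ra* to that L domain was 416 kb in CH12 cells, 616 kb in primary B cells and 936 kb in the MEF map. Within 1 Mb of *Il4ra*, 29.2% of the DNA was L in CH12 cells, 19.2% in primary B cells and 3.21% in the MEF map. The first protein-coding start past the edge was *4930533L02Rik* in CH12 cells, 234 kb from *Il4ra* and M.

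*Cd83* (ENSMUSG00000015396, chr13:43880476-43898499) was the gene whose domain differed most between the B cell maps. It measured 1740 kb in CH12 cells, 3300 kb in primary B cells and 1740 kb in the MEF map. The equal lengths in CH12 and MEF hide a small offset, since the MEF domain began 140 kb farther left and ended 140 kb farther left, and 1600 kb was shared. In primary B cells the left edge was 100 kb farther out than in CH12 cells and the right edge 1460 kb farther out, at the end of chr13:43140001-46440000. In CH12 cells the stretch to the right was M for 2020 kb, starting 1100 kb after the *Cd83* start. In the MEF map it alternated, with 540 kb of M, 320 kb of E and 280 kb of M before E resumed. The domain held 9 protein-coding starts in CH12 cells, 17 in primary B cells and 9 in the MEF map. On the left, CH12 cells had an L domain of 280 kb, 880 kb from the *Cd83* start, inside a stretch that was wholly M in both other maps. The nearest L was accordingly 880 kb away in CH12 cells, 3160 kb in primary B cells and 3280 kb in the MEF map. The gene start itself lay well inside E in each map, 640, 740 and 780 kb from the nearest edge, on the left. *Rnf182* at 169 kb, *Ccdc90a* at 225 kb and *Ranbp9* at 304 kb were its nearest companions in the shared domain.

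*Cd74* (ENSMUSG00000024610, chr18:60963502-60972300) lies in the shortest domain of the 6 in both B cell maps, at 1240 kb in CH12 and 1340 kb in primary B cells. In the MEF map it measured 1840 kb. Compared with CH12 cells, the MEF domain reached 140 kb farther on the left and 460 kb farther on the right, while the primary B domain reached 40 and 60 kb farther. The start was 344 kb from the left edge in CH12 cells, 384 kb in primary B cells and 484 kb in the MEF map. The L domain past the M stretch on that side was 2700 kb long in CH12 cells, 2020 kb in primary B cells and 780 kb in the MEF map. Of the DNA within 1 Mb, 62.0% was E in CH12 cells, 67.0% in primary B cells and 74.2% in the MEF map. The domain also held *Pdgfrb*, a fibroblast marker 241 kb away, in all 3 maps, so a gene of B cell antigen presentation and a fibroblast receptor gene shared an early domain in each. The nearest companions were *Rps14* at 29.3 kb, *Tcof1* at 45.1 kb and *Ndst1* at 55.2 kb.

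The domain of *Rhoh* was shortest in CH12 cells and longest in the MEF map. It measured 1560 kb in CH12 cells, 2820 kb in primary B cells and 3260 kb in the MEF map. In CH12 cells it covers chr5:65180001-66740000. The left edge was 960 kb farther out in primary B cells and 940 kb farther out in the MEF map, and the right edge 300 and 760 kb farther out. The distance of the start to the nearest edge, on the right, was 485 kb in CH12 cells, 785 kb in primary B cells and 1245 kb in the MEF map. The flanks differed as well. To the right, CH12 cells had 180 kb of M, then an L domain of 600 kb, whereas primary B cells had 1500 kb of M. The nearest L was therefore 665 kb from *Rhoh* in CH12 cells, 2285 kb in primary B cells and 1965 kb in the MEF map. Within 1 Mb of *Rhoh*, 16.7% of the DNA was L in CH12 cells and 0% in both other maps. *Apbb2*, the first protein-coding start past the right edge in CH12 cells, was L there at 755 kb. The closest companions were *Chrna9* at 71.4 kb and *N4bp2* at 100 kb, and 20 other starts shared the domain in all 3 maps.

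**Figure D2:**
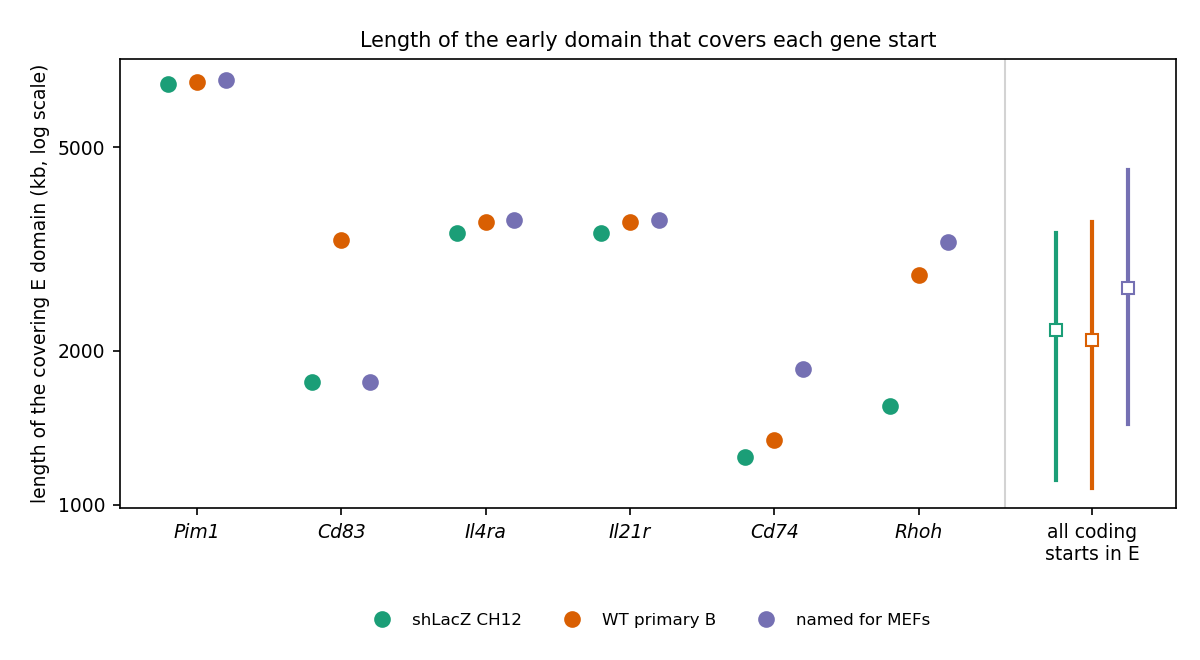
Length of the E domain covering each gene start (y axis, kb, log scale) for the 6 genes in the 3 maps, 1 point per map with no replicate error. At the right, squares are medians and bars the quartiles over all protein-coding starts in E (median 2200 kb in CH12, 2100 kb in primary B and 2660 kb in the MEF map). *Pim1* lies above the bars, and *Cd83* and *Rhoh* spread most between maps.

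The same order appeared at all 6 genes in 2 respects. The domains were longer in primary B than in CH12 cells, by 40 kb at *Pim1*, 100 kb at *Cd74*, 180 kb at *Il4ra* and *Il21r*, 1260 kb at *Rhoh* and 1560 kb at *Cd83*. A longer domain in primary B than in CH12 cells was also found at 71.9% of the 9804 starts that were E in all 3 maps. The nearest L domain was closer in CH12 cells than in either other map at all 6 genes and at 75.6% of those starts. Both orders were thus common among early genes and do not set the members apart. These are 5 domains from single maps, and at 4 of the 6 genes the difference in length was less than the smoothing span. The part of each domain that was E in every map was 6640 kb at *Pim1*, 3400 kb at *Il4ra* and *Il21r*, 1600 kb at *Cd83*, 1560 kb at *Rhoh* and 1240 kb at *Cd74*. In each case the shared core held the whole gene.

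The members were set against all protein-coding starts in E to see whether they sit deeper or in longer domains than early genes do. Their median domain measured 2570 kb in CH12 cells, 3440 kb in primary B cells and 3430 kb in the MEF map, beside 2200, 2100 and 2660 kb over all E starts. Counting the shared receptor domain once took the members' medians to 1740, 3300 and 3260 kb. The medians over E starts count a domain once for each start in it, so they are no like measure for these. Their median distance to the nearest edge was 414 kb in CH12 cells, 558 kb in primary B cells and 632 kb in the MEF map, beside 443, 440 and 572 kb over E starts. With each gene counted, the members' medians of length and edge distance lie within the quartiles of E starts in the same map. *Pim1* stood out by length, with 3.34% of E starts in a domain as long or longer in CH12 cells and 1.66% in primary B cells, but 11.5% in the MEF map. *Il4ra* was at the shallow side, with 71.6% of E starts as deep or deeper in CH12 cells, 60.7% in primary B cells and 70.4% in the MEF map. A start within 300 kb of an edge was common among E genes, at 37.6% in CH12 cells, 37.7% in primary B cells and 30.1% in the MEF map.

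**Figure D3:**
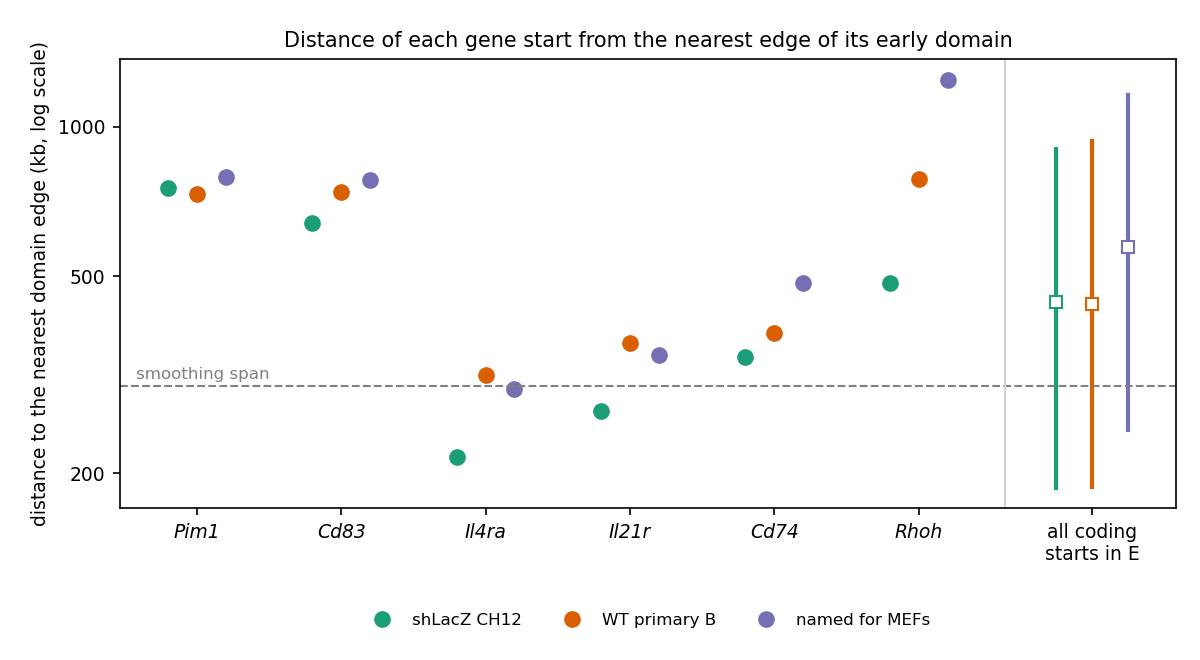
Distance from each gene start to the nearest edge of its E domain (y axis, kb, log scale) in the 3 maps, with medians (squares) and quartiles (bars) over all protein-coding starts in E at the right and the 300 kb smoothing span as a dashed line. *Il4ra* and *Il21r* in CH12 and *Il4ra* in the MEF map fall under the line.

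Base composition and gene density were compared because early DNA is in general GC-rich and gene-rich, and neither was used to choose the genes. GC content of the 20 kb bin holding the start was 48.8% for *Pim1*, 45.6% for *Cd83*, 47.6% for *Il4ra*, 47.5% for *Il21r*, 51.0% for *Cd74* and 44.7% for *Rhoh*. The median of 47.5% was near that of the 9804 starts E in all 3 maps, 47.9% (quartiles 45.2 and 50.7%), and above the 44.7% of all protein-coding starts. *Rhoh* was below the lower quartile of the early starts. Gene density went the other way. Within 500 kb there were 17 other protein-coding starts at *Pim1*, 6 at *Cd83*, 8 at *Il4ra*, 9 at *Il21r*, 19 at *Cd74* and 11 at *Rhoh*. The median of 10 was under that of starts E in all 3 maps, 22 (quartiles 15 and 34), and under the 15 of all starts. *Cd83*, *Il4ra*, *Il21r* and *Rhoh* were below the lower quartile of the early starts, so 4 of the 6 genes are early in surroundings with fewer genes than most early genes have. All 6 genes are read on the plus strand, beside 49.9% of protein-coding genes.

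**Figure D4:**
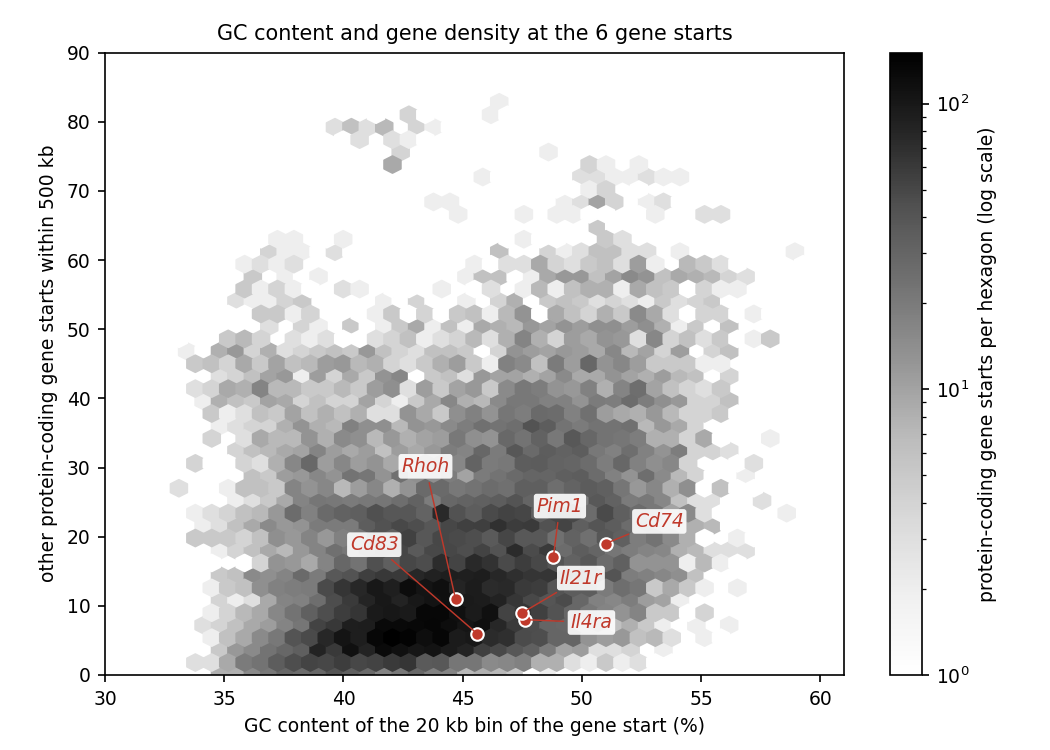
GC content of the 20 kb bin of the gene start (x axis, %) against the number of other protein-coding starts within 500 kb (y axis), with all 22350 protein-coding starts as shaded hexagons (count on a log scale) and the 6 genes as red points. The points lie between 44.7 and 51.0% GC and between 6 and 19 neighbouring starts.

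A wider list of genes described as AID off-targets in B cells was placed in the same way. Of 19 listed, 18 were matched in the annotation used and *Syk* was not analysed here. In CH12 cells 14 of 18 were E (50.6% of all starts), in primary B cells 18 of 18 (58.0%) and in the MEF map 14 of 18 (58.6%), and 12 were E in all 3 (43.9%). In an earlier state in a B cell map than in the MEF map were 4 genes of 18, beside 12.7% of all starts. They were *Pax5*, the transcription factor that maintains B cell identity, *Ly6e*, *Btg1* and *Birc3*, each M in the MEF map. Between the B cell maps, 4 of 18 were earlier in primary B than in CH12 cells, a share near the 18.8% of all starts. *Bcl6*, the germinal centre transcription factor, was L in CH12 cells, in a domain of 1480 kb, and E in primary B cells and the MEF map. *Ebf1*, *Btg1* and *Birc3* were M in CH12 cells and E in primary B cells.

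**Figure D5:**
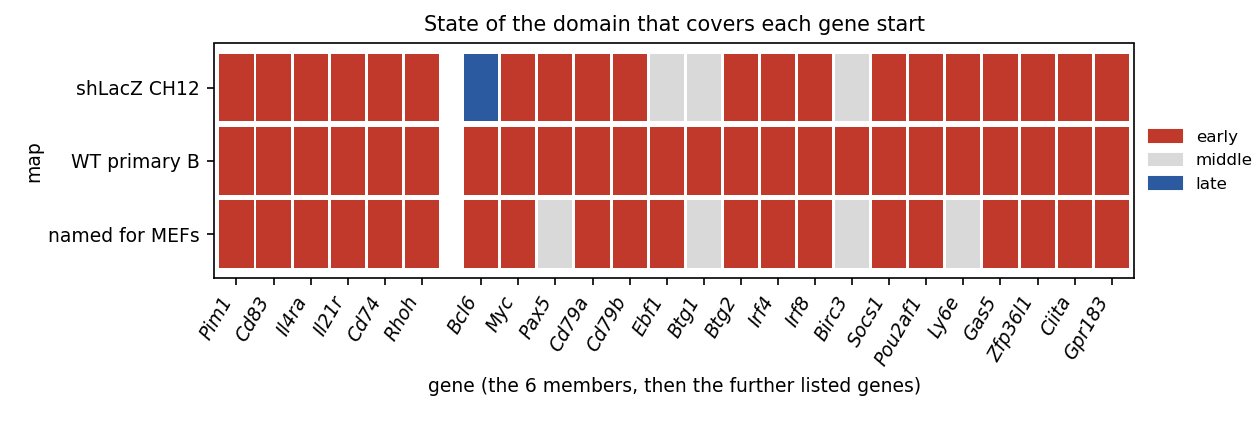
State of the domain covering each gene start (early red, middle grey, late blue) for the 6 genes and the 18 further listed off-target genes (x axis) in the 3 maps (y axis). The 6 members are red throughout, the middle row is red for all genes, and *Bcl6* is the only blue cell.

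Among the listed off-target genes that were E, the start nearest to a domain edge in a B cell map was that of *Myc*. *Myc*, a growth-promoting transcription factor and a frequent translocation partner in B cell tumours, was E in all 3 maps, but in CH12 cells its E domain was 140 kb long and its start 23.1 kb from the edge, where 97.3% of E starts in that map lay as deep or deeper. In primary B cells the domain measured 1800 kb and in the MEF map 1340 kb. Of the 12 further off-target genes that were E in all 3 maps, 9 had a longer domain in primary B than in CH12 cells. The exceptions were *Pou2af1*, with 2080 kb in CH12 and 1020 kb in primary B cells, *Zfp36l1*, with 2700 and 2460 kb, and *Cd79b*, with 2060 kb in both. *Socs1*, an inhibitor of cytokine signalling, and *Ciita*, the master regulator of MHC class II genes, lay 305 kb apart in the same domain in each map, which measured 1340, 1520 and 1000 kb.

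Partners and relatives of the 6 proteins were read for context, 23 genes in all. In CH12 cells 19 were E (50.6% of all starts), in primary B cells 22 (58.0%) and in the MEF map 18 (58.6%), and 16 were E in all 3 (43.9%). Among receptor chains, *Il2rg*, the common gamma chain used by both IL-4 and IL-21 receptors, was E in both B cell maps and M in the MEF map. *Il2ra* was also E in both B cell maps and M in the MEF map. *Il2rb* and *Il9r* were E in all 3 maps, and *Il7r* was M in all 3. *Il13ra1*, whose product pairs with Il4ra, was M in CH12 cells and the MEF map and E in primary B cells. Among the ligands, *Il4* was E in all 3 maps, in a domain of 2300 kb or more, while *Il21* was M in CH12 cells and E in the other maps. Of the kinases and transcription factors downstream of these receptors, *Jak3*, *Stat3* and *Stat6* were E in all 3 maps and *Jak1* was M in CH12 cells and E in the others. *Pim3* was E in all 3 maps, and *Pim2* was E in both B cell maps and M in the MEF map. The MHC class II genes *H2-Aa* and *H2-Ab1*, the protease gene *Ctss*, and *Cd44* and *Mif*, the partners of Cd74, were E in all 3. So were the GTPase genes *Rhoa*, *Rhob*, *Rhog* and *Rac2*. *Il4ra* and *Il21r* were E in every map, as were *Il2rb*, *Il9r* and *Il4*, while *Il21*, *Il2rg*, *Il2ra*, *Il7r* and *Il13ra1* were not. *Il2rg*, *Il13ra1* and *Pim2* lie on the X chromosome, and the sex of the cells behind each map was not used here. In the MEF map 13086 of all 22350 starts were E, beside 61.1% of the 21418 on autosomes, which leaves next to none on the X chromosome. The lack of E at these genes in the MEF map was thus shared by nearly all X-linked starts and is not particular to them.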

How the data were processed

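Repli-seq libraries of early and late S phase DNA were made from mouse B cells. The authors trimmed the reads, aligned them to mm9 with bwa mem, kept unique alignments, merged replicates and then removed duplicates. They took log2 early over late coverage in 20 kb windows, smoothed it by loess (span 300 kb) and called 3 states by a hidden Markov model. The submitters' processing notes name BWA 0.7.17, SAMtools 1.9, Trim Galore 0.6.5, bedtools 2.29.2 and deepTools. Per the deposited files, each domain has a start and an end, which are coordinates, and a state score, a label number with no RT value. Depth is unknown from the maps, and edges are blurred by the smoothing.

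The deposited maps of shLacZ CH12 cells, WT primary B cells and MEFs were used, and 5 groups were not analysed here. The names E, M and L of the state scores were set in advance for each map. Under these names E and L domains never touched (0 contacts in each map), and E had the most gene starts per Mb. All 20 chromosomes ended at the NCBIM37 length in each map. Genes came from GENCODE M1, with the longest protein-coding entry where a symbol had several, and were placed by their start on their own strand. The covering domain, its length, the nearest edge, the nearest L domain, GC content, gene density and AGCT counts were computed with Python 3.11.15 (scipy 1.17.1, numpy 2.4.6, pandas 2.3.3), and figures were drawn with matplotlib 3.10.9. Placement was tested on 5000 simulated positions, and 4 of 4 checks gave the known answer. The genes named are the 6 members, the 2 lists of further off-targets and of partners, the markers, the 3 nearest starts sharing a member's domain in all maps, and the first start past its nearest edge. A marker under this rule is not reported here. Members and lists were chosen with earlier results of these data known. No test was made, with a single map for each condition. Alternatives were the gene midpoint, end or body, points 100 and 300 kb from the start, filling or joining short domains, counting shared domains once, all annotated genes, and autosomes only.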

Additional observations from a re-analysis of the deposited data

How the results depend on the processing

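Of 66 alternative values for 14 results, 56 stayed within the margin set for them, which was 1.5 times for a count, 1 bin of 20 kb for a length and the Wilson 95% interval for a share. All 6 members remained E in all 3 maps at the gene midpoint, the gene end, over the gene body and 100 kb to either side. Every start lay 216 kb or more from the nearest edge, and no gene was longer than 33.1 kb. These values therefore could not move and give no evidence of robustness. At 300 kb before the start, *Il4ra* and *Il21r* were M in CH12 cells and *Il4ra* was M in the MEF map. The number of members earlier in a B cell map than in the MEF map rose from 0 to 1. Members in E in CH12 cells fell from 6 to 4, and so did members in the same state in both B cell maps. Both falls lay at the limit of 1.5 times and were counted as within the margin. With the shared domain of *Il4ra* and *Il21r* counted once, the median domain length was 1740 kb in CH12 cells, 3300 kb in primary B cells and 3260 kb in the MEF map, because 5 domains remained. The share of starts in E was 44.8, 51.7 and 51.8% over all annotated genes and 51.8, 59.2 and 61.1% over protein-coding genes on autosomes, in the same order of maps. Joining domains across up to 100 kb moved no median. The M stretch past each nearest edge was 180 kb or longer, so joining could not act there. No paired analysis was possible because each condition has 1 map with its replicates merged. Read depth, replicate spread and RT values within a state are not in the maps, so differences within E and edge shifts of a few bins are not resolved.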
